A study of Mus musculus with 20 samples.

Results

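DNA replication and S phase genes were followed in NIH3T3 cells, an established fibroblast line from mouse embryos, under low CO2 or under added alkali. The genes were chosen by name, with earlier results of these data known. They are those that license and unwind origins, copy the strands, supply nucleotides, drive entry into S phase, repair replicating DNA and package it. Of 46 listed genes, 45 had a row in the count table of 11075 genes and 42 passed the minimum mean normalized count of 5 that left 9726 genes to be tested. The remaining members were E2f2, Ccne2 and Slbp, whose mean lay under that minimum, and Cdc6, which was not analysed here.

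The 20 libraries fell into 5 groups of 4. Cells were kept in medium with bicarbonate and taken on the fourth day after plating, and were moved to a second incubator at 1% CO2 for 2 h or 4 h, given 18 mM NaOH under 5% CO2 for 2 h or 4 h, or left untreated under 5% CO2 (0 h). The design addresses whether low CO2 acts on transcripts beyond the rise in medium pH that NaOH also brings. The 0 h libraries served as the control for both treatments, no untreated library was taken at 2 h or 4 h, and each treated group differs from 0 h in time in culture and handling as well as in treatment, which cannot be told apart. The study calls the libraries of a group biological replicates without saying how they were separated, and the p-values measure the spread between these libraries.

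Each library was a bulk 3′ tag library in which molecules are counted by unique molecular identifiers (UMIs), with totals between 1325293 and 5640523. The shallowest library was NaOH 2 h replicate 2, in which 1 UMI was worth 2.60 normalized counts, so a 0 in it allows a low level. Replicate 3 of 1% CO2 2 h stood apart from its group, with a chi-square per degree of freedom of 10.8 to 11.5 against the other libraries, whose pairs gave 2.49 to 3.74. Without it, 6 members were lower and 2 higher at 1% CO2 2 h than in untreated cells, the same counts as with it. All 10 fibroblast markers, such as Col1a1 and Vim, were in the table, with a summed normalized count of 120836 to 162638 in every library, and no listed endothelial or fat marker had a row. Of 6 epithelial markers, 2 (Krt14 and Cdh1) were measured, with a summed normalized count of 527 to 614 at 1% CO2 2 h and 218 to 270 at 1% CO2 4 h, 837 to 968 at NaOH 2 h and 624 to 760 at NaOH 4 h, and 769 to 893 in untreated cells. Of 6 immune markers, 2 (Cd68 and Lyz2) were measured, with a sum of 97.4 to 202 over all libraries. Of 4 muscle markers only Des was, at 9.30 to 28.0. By edgeR Des was lower at 1% CO2 4 h than in untreated cells (log2FC -0.78, adjusted p = 0.0108). The part of these epithelial, immune and muscle markers in the results was not tested. The S phase genes were lowly expressed: their mean normalized count had a median of 39.8 over the 42 tested members, against 89.5 over all tested genes, and 12 members lay under 20. Together the members held 0.0698% ± 0.00413 of all UMIs at 1% CO2 2 h and 0.0730% ± 0.00314 at 1% CO2 4 h, 0.0608% ± 0.00239 at NaOH 2 h and 0.0568% ± 0.00174 at NaOH 4 h, and 0.0802% ± 0.00450 in untreated cells (SD, n = 4 each). In a bulk sample, fewer cells in S phase and less of these transcripts per cell cannot be told apart.

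As background, a cell licenses its origins in G1, when the origin recognition complex with Cdc6 and Cdt1 loads the ring of Mcm2 to Mcm7, the replicative helicase, onto DNA. At the start of S phase Cdc45 and the GINS complex turn the ring into an active helicase, primase and the DNA polymerases copy both strands behind it, and the sliding clamp Pcna, loaded by replication factor C, holds the polymerases in place. Many of these genes are switched on together at the G1/S boundary by E2F transcription factors, and their transcripts are scarce in resting fibroblasts.

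Most of the replication genes were lower after 4 h of NaOH than in untreated cells. With edgeR's quasi-likelihood test and Benjamini-Hochberg adjustment over all tested genes (adjusted p of at most 0.05), NaOH at 4 h gave 27 members lower and 5 higher of 42, where 26.9% of all tested genes were lower and 28.2% higher. At 2 h NaOH gave 19 members lower and 3 higher, beside a background of 20.4% lower and 23.0% higher. In 1% CO2, 6 members were lower and 2 higher at 2 h (12.4% and 16.0% of all tested genes), and 13 were lower and 7 higher at 4 h (18.9% and 20.3%). The median log2 fold change (log2FC) of the members was -0.28 and -0.11 at 2 h and 4 h of 1% CO2, and -0.41 and -0.58 at 2 h and 4 h of NaOH, beside medians of all tested genes between -0.03 and 0.00. A change of at least 2-fold was reached by 1 lower and 1 higher member at 1% CO2 2 h (2.38% and 3.16% of all tested genes) and by 2 and 2 at 1% CO2 4 h (3.98% and 4.06%). At NaOH 2 h 6 members were at least 2-fold lower and none higher (5.33% and 6.68%), and at NaOH 4 h 11 were lower and 2 higher (7.96% and 7.60%).

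These counts held to different degrees when single libraries were left out. At NaOH 4 h, 21 of the 27 lower members and 4 of the 5 higher ones were called whichever of the 8 libraries was left out, and at NaOH 2 h 12 of 19 and 2 of 3 were. At 1% CO2 4 h, 6 of 13 lower and 5 of 7 higher members were, and the count of lower members was 8 without 1% CO2 4 h replicate 1. At 1% CO2 2 h, 1 of 6 lower members (Pold1) and both higher ones (Cdt1 and Pcna) were, and the count of lower members was 2 without untreated replicate 2 or without 1% CO2 2 h replicate 1. The lost calls reached an adjusted p of at most 0.28 without the library in question.

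**Figure D1:**
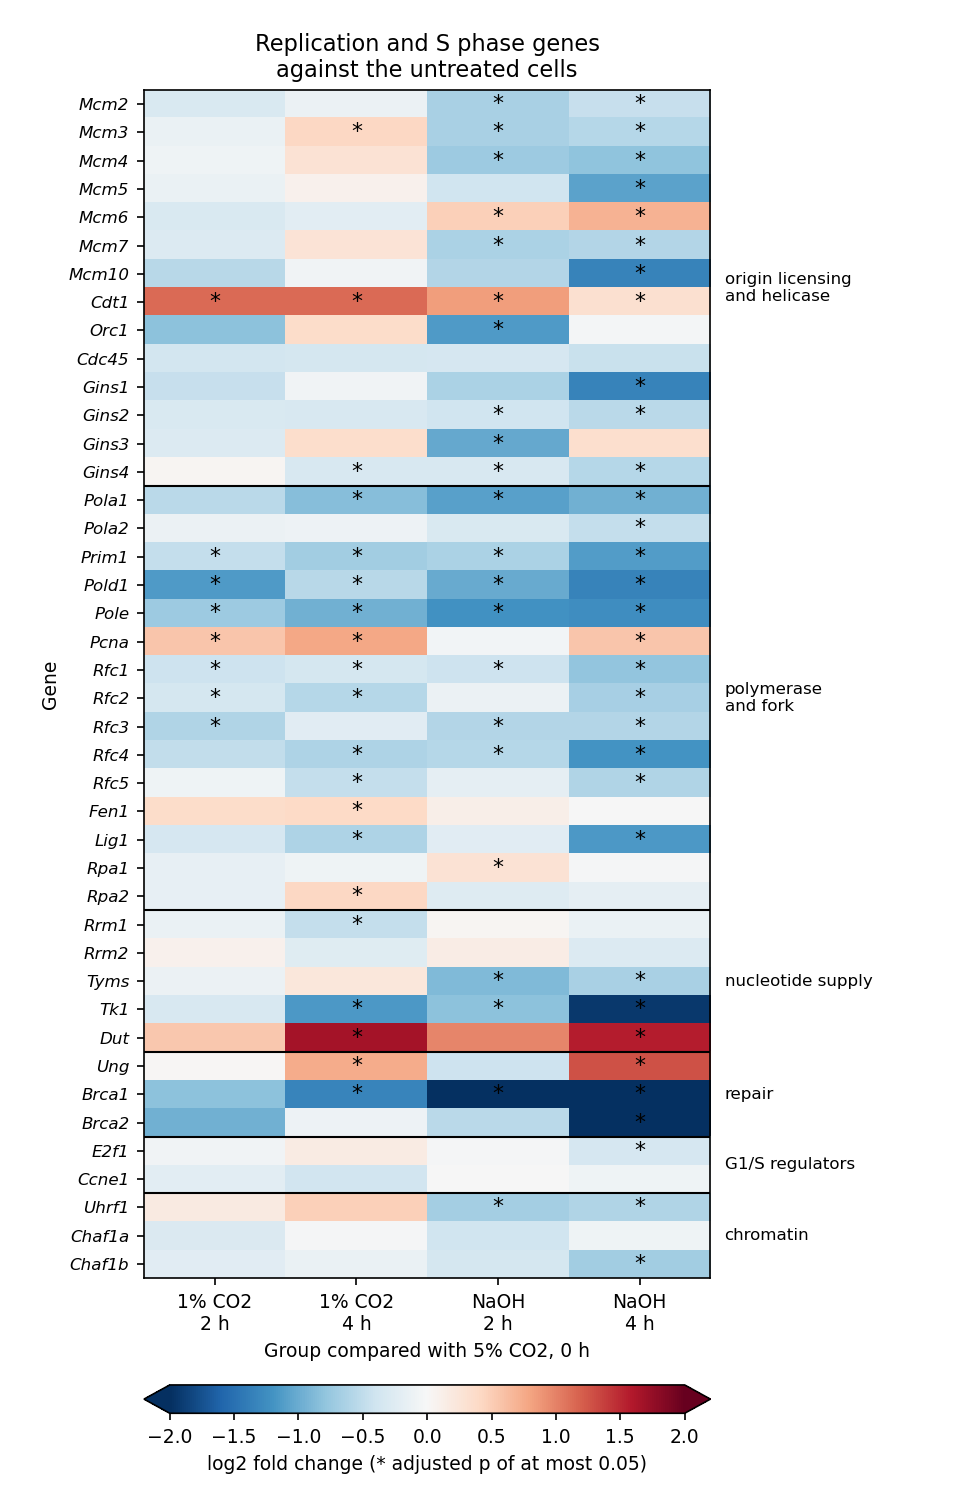
log2 fold change of the 42 tested members (rows, by role) in 1% CO2 and NaOH at 2 h and 4 h, each over untreated cells at 0 h, with an asterisk where edgeR's adjusted p was at most 0.05. The NaOH 4 h column holds 27 lower and 5 higher calls, and Mcm6, Cdt1, Pcna, Dut and Ung are the higher ones.

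Most origin and helicase genes were lower under NaOH, and few passed the test under 1% CO2. Of 14 tested members of this role, 8 were lower and 2 higher at NaOH 2 h and 9 lower and 2 higher at NaOH 4 h, whereas at 1% CO2 2 h none was lower and 1 higher, and at 4 h 1 was lower and 2 higher. The shares lower at NaOH 2 h and 4 h were 57.1% and 64.3%, beside 20.4% and 26.9% of all tested genes. At 1% CO2 4 h the shares were 7.14% lower and 14.3% higher, under the 18.9% and 20.3% of all tested genes. Within the Mcm2 to Mcm7 ring the subunits did not move together.

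Mcm3 had 81.0, 105, 82.5 and 101 normalized counts at 1% CO2 2 h and 139, 133, 135 and 139 at 1% CO2 4 h, 57.6, 70.1, 68.2 and 68.1 at NaOH 2 h and 69.5, 69.8, 57.3 and 78.1 at NaOH 4 h, against 119.8, 106, 88.0 and 88.8 in untreated cells. All 8 NaOH libraries lay below and all 4 libraries of 1% CO2 4 h above every untreated library. By edgeR the log2FC over untreated cells was -0.64 ± 0.14 (SE) at NaOH 2 h (adjusted p = 0.000217), -0.57 ± 0.13 at NaOH 4 h (adjusted p = 0.000312) and 0.42 ± 0.12 at 1% CO2 4 h (adjusted p = 0.00531).

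Mcm4 had 98.9, 111, 111 and 98.7 normalized counts at 1% CO2 2 h and 138, 141, 140.0 and 122 at 1% CO2 4 h, 73.4, 62.3, 70.6 and 60.7 at NaOH 2 h and 44.9, 55.0, 89.3 and 66.5 at NaOH 4 h, against 121, 110.0, 111 and 102 in untreated cells. Mcm7 had 52.6, 72.1, 77.0 and 92.0 at 1% CO2 2 h and 104, 110.5, 116 and 99.5 at 1% CO2 4 h, 59.4, 49.3, 62.1 and 55.3 at NaOH 2 h and 62.7, 55.0, 61.2 and 57.0 at NaOH 4 h, against 94.7, 85.3, 85.8 and 88.8 in untreated cells. No NaOH library of either gene reached the lowest untreated one, and their log2FC at NaOH 4 h was -0.81 ± 0.14 (adjusted p = 7.69e-06) for Mcm4 and -0.59 ± 0.13 (adjusted p = 0.000295) for Mcm7. The 4 h libraries of 1% CO2 lay above every untreated one for both genes, without passing the test against 0 h. The 3′ end of Mcm7 overlaps that of Cops6, a signalosome subunit on the opposite strand, and no source used here gives the strand setting of the counting. Cops6 had a log2FC of -0.18 (adjusted p = 0.139) at NaOH 2 h and 0.06 (adjusted p = 0.619) at NaOH 4 h over untreated cells. Gins2, Rfc2, Rfc5 and Chaf1a lie in the same way against Gse1, Lat2, Wsb2 and Ubxn6, none of which was called lower at NaOH 4 h.

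Mcm2 had 86.3, 98.0, 64.0 and 74.1 normalized counts at 1% CO2 2 h and 118, 57.0, 81.7 and 112 at 1% CO2 4 h, 59.4, 59.7, 68.2 and 67.0 at NaOH 2 h and 71.2, 74.4, 66.0 and 81.3 at NaOH 4 h, against 103, 90.0, 101 and 107 in untreated cells. It fell at both times of NaOH (log2FC -0.65 ± 0.16, adjusted p = 0.00149, and -0.46 ± 0.15, adjusted p = 0.0112). The 1% CO2 libraries were spread over the range of both the NaOH and the untreated ones.

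Mcm5 fell late. It had 35.8, 39.7, 43.6 and 40.4 normalized counts at 1% CO2 2 h and 46.6, 47.7, 53.3 and 37.9 at 1% CO2 4 h, 29.7, 36.4, 25.6 and 42.6 at NaOH 2 h and 19.5, 20.6, 20.4 and 23.2 at NaOH 4 h, against 44.6, 60.6, 30.1 and 37.6 in untreated cells. The NaOH 4 h libraries lay below all other libraries of the gene, with a log2FC of -1.07 ± 0.20 over untreated cells (adjusted p = 2.71e-05). At NaOH 2 h the groups overlapped.

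Mcm6 moved the other way. It had 55.8, 76.1, 81.6 and 59.5 normalized counts at 1% CO2 2 h and 85.9, 74.4, 81.7 and 49.0 at 1% CO2 4 h, 123, 101, 119 and 127 at NaOH 2 h and 136, 124, 146 and 151 at NaOH 4 h, against 92.0, 102, 70.2 and 74.4 in untreated cells. All NaOH 4 h libraries exceeded every untreated library, and at NaOH 2 h replicate 2 fell within the untreated range. The log2FC over untreated cells was 0.48 ± 0.14 at NaOH 2 h (adjusted p = 0.00617) and 0.70 ± 0.13 at NaOH 4 h (adjusted p = 3.96e-05). The 2 h call was lost when libraries were scaled by their totals alone, under which the median log2FC of all genes at NaOH 2 h was -0.21 (-0.03 with TMM scaling), and the 4 h call was kept.

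**Figure D2:**
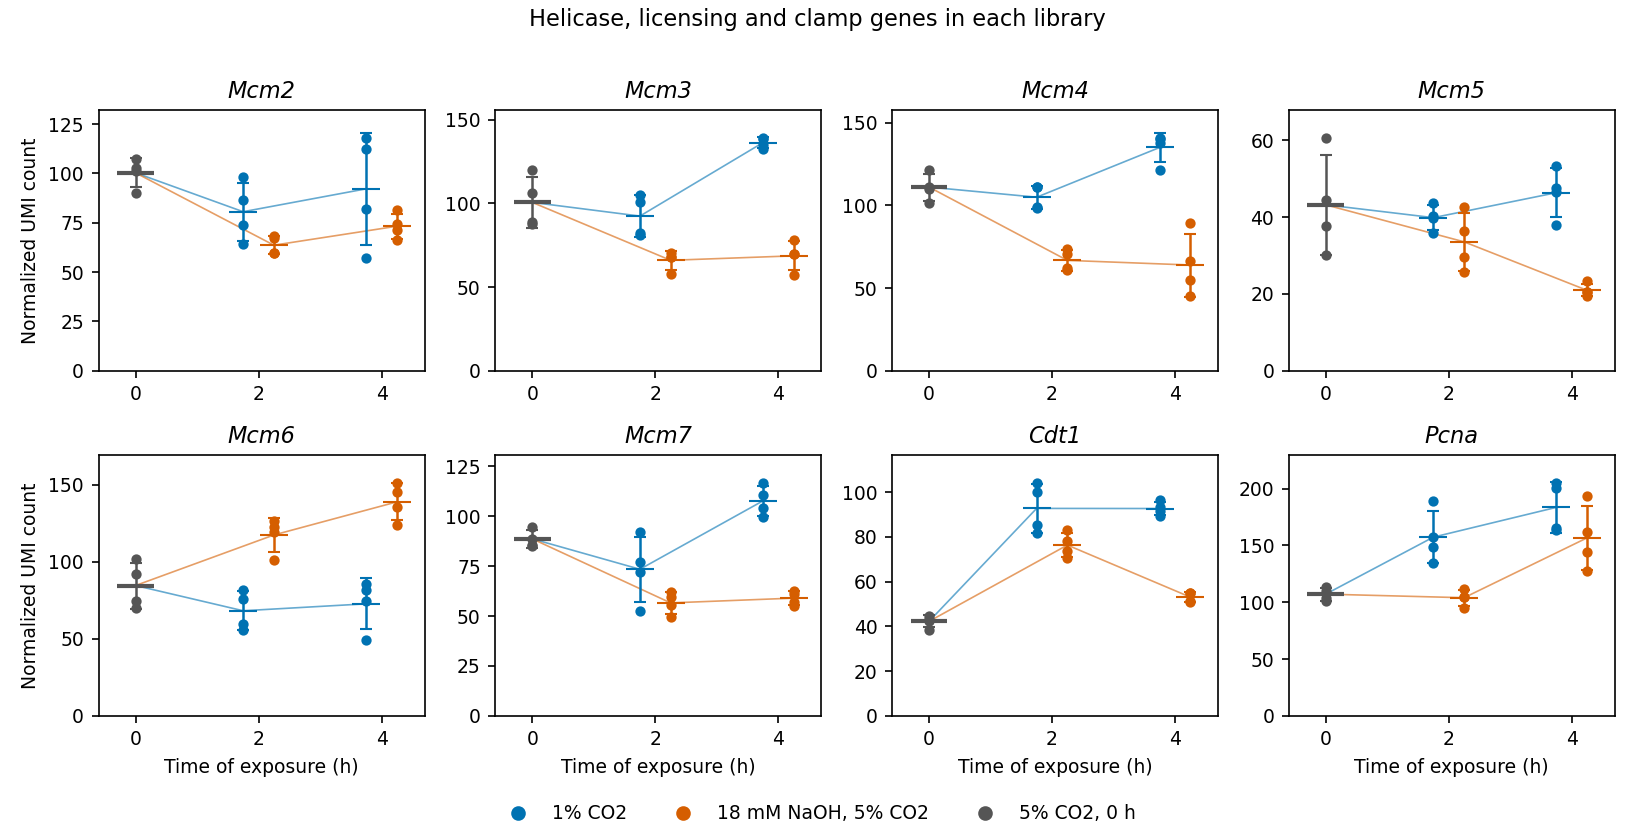
Normalized UMI counts of 8 genes in each library against the time of exposure (h), with 1% CO2 in blue, 18 mM NaOH in orange and untreated cells in grey. Points are libraries, short lines with bars are group means and SDs (n = 4), and thin lines join the means. Mcm3, Mcm4 and Mcm7 lie lower in NaOH than in untreated cells, and Mcm6 lies between 101 and 151 in NaOH.

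Because Mcm2 to Mcm7 form 1 ring, the makeup of their UMIs was also compared between groups. Mcm6 gave 29.0% ± 1.71 of the UMIs of the 6 genes at NaOH 2 h and 32.7% ± 1.14 at NaOH 4 h, 14.8% ± 2.19 at 1% CO2 2 h and 12.3% ± 2.34 at 1% CO2 4 h, and 15.9% ± 1.78 in untreated cells (SD, n = 4 each). The lowest NaOH library held 26.7% and the highest of the other libraries 18.4%. Mcm5 gave 4.93% ± 0.243 at NaOH 4 h and 8.10% ± 2.01 in untreated cells. These shares were chosen for description after the values of Mcm6 had been seen, and they compare groups for 1 gene, not the amounts of different genes. They have a fixed total, so a larger share of Mcm6 lowers those of the others. In 36 exact permutation tests between groups no Benjamini-Hochberg adjusted p lay under 0.0686. With 4 libraries a side the unadjusted p of such a test cannot fall under 0.0286. Mcm6 stood at that floor at NaOH 2 h and 4 h against untreated cells. Adjusted over the 36 tests, full separation of 1 gene alone could not reach 0.05, so these tests cannot decide whether its share differed.

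**Figure D3:**
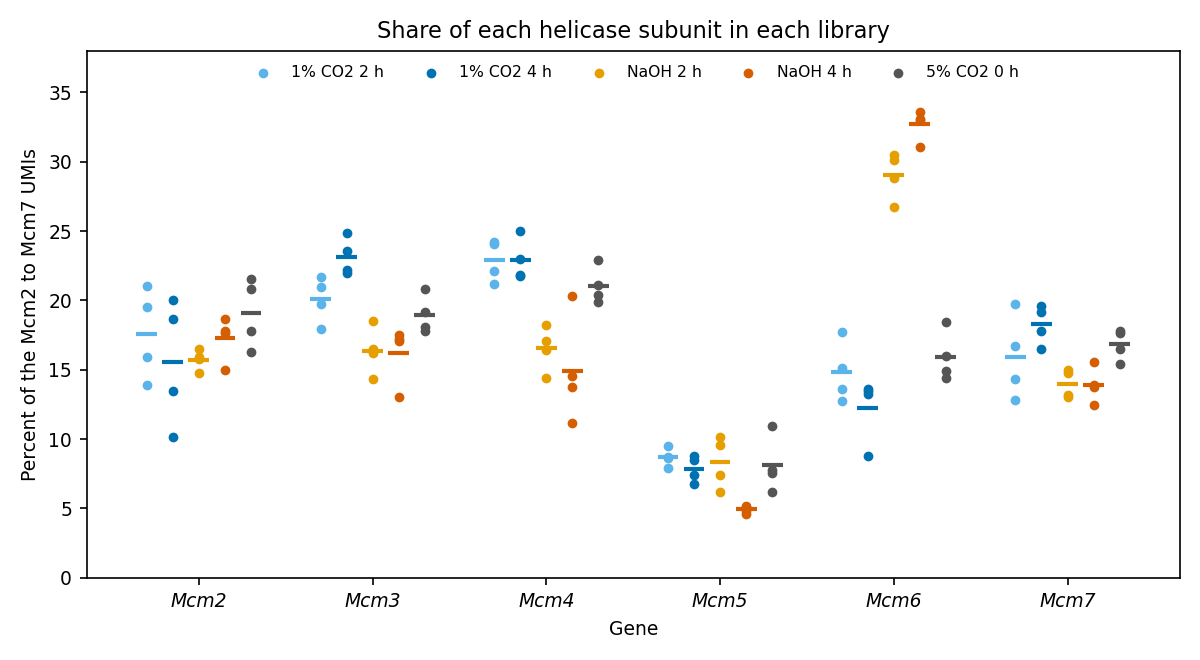
Share of each of Mcm2 to Mcm7 in the UMIs of these 6 genes (percent, vertical axis), with 1 point per library and a line at the group mean, for 1% CO2 and NaOH at 2 h and 4 h and untreated cells. The Mcm6 share is 26.7% or more in all NaOH libraries and 18.4% or less in all others.

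E2F factors are known to bind the promoters of many replication genes. The 8-letter forms TTTCCCGC, TTTCGCGC, TTTGCCGC and TTTGGCGC were searched on both strands in the 250 bases before the RefSeq start (GRCm38.p6), where 10 of 39 matched member genes (25.6%) held at least 1, against 312 of 7526 tested genes (4.1%) and 583 of 27025 genes of the promoter table (2.2%). Overlapping forms were counted as separate matches. The letters CCAAT were found in 23 of 39 members (59.0%) and in 40.9% of tested genes, and TTTGAA, the core of the cell cycle homology region of mitotic genes, in 5 of 39 (12.8%) and in 12.1%. A match is a description of the letters and no binding was measured.

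Mcm5 and Mcm6 are shown because both hold E2F-like letters within their first 250 bases upstream while their counts moved in opposite directions under NaOH. The windows are from RefSeq on GRCm38.p6, 5′ to 3′ on the strand of the gene, with the matched letters in capitals. The Mcm5 window is chr8:75109330-75109397 on the plus strand, in which TTTCGCGC and the reverse complement of TTTGGCGC overlap, and the Mcm6 window is chr1:128359715-128359782 on the minus strand. Both windows lie upstream of their gene and overlap no exon of the GENCODE vM21 annotation, and the second of the overlapping Mcm5 matches begins 149 bases before the start and the marked Mcm6 match 47 bases before it. The 250 bases of Mcm5 hold 2 matches in all and those of Mcm6 hold 3.
Mcm5: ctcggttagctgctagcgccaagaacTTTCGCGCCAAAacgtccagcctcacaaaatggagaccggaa
Mcm6: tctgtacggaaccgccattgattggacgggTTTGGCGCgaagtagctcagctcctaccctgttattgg
Of the 9 tested members with such letters, 6 were lower and 1 (Mcm6) higher at NaOH 4 h. Of the 27 without, 15 were lower and 4 higher, beside 26.9% and 28.2% of all tested genes. The median log2FC was -0.59 with and -0.46 without the letters. At NaOH 2 h 6 of the 9 were lower and 1 higher, and 9 of the 27 lower and 2 higher (background 20.4% and 23.0%). At 1% CO2 4 h 1 of the 9 was lower and none higher, and 9 of the 27 lower and 7 higher (18.9% and 20.3%), with medians of 0.09 and -0.12. At 1% CO2 2 h 1 of the 9 was lower and none higher, and 3 of the 27 lower and 2 higher (12.4% and 16.0%).

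Cdt1, which loads the helicase and is degraded once S phase begins, rose under both treatments. It had 85.2, 81.8, 104 and 99.9 normalized counts at 1% CO2 2 h and 93.2, 96.5, 89.2 and 91.6 at 1% CO2 4 h, 78.0, 83.1, 70.6 and 73.4 at NaOH 2 h and 50.8, 55.0, 51.4 and 54.9 at NaOH 4 h, against 42.4, 44.6, 43.4 and 38.4 in untreated cells. Every treated library was above every untreated one. The log2FC was 1.13 ± 0.12 and 1.13 ± 0.13 at 2 h and 4 h of 1% CO2 (adjusted p = 3.82e-09 and 4.31e-09) and 0.84 ± 0.13 at NaOH 2 h (adjusted p = 2.92e-06). Under NaOH it then fell by 0.51 ± 0.13 between 2 h and 4 h (adjusted p = 0.00283), and the 4 h value of 0.33 ± 0.14 over untreated cells (adjusted p = 0.0388) was lost with DESeq2, with scaling by library size alone, and without untreated replicate 1 or 4 or NaOH 4 h replicate 2, 3 or 4, where the adjusted p was at most 0.108.

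Among the remaining licensing and firing factors, Gins1, Gins2 and Gins4, subunits of the GINS complex, were lower at NaOH 4 h (log2FC -1.34 ± 0.42, -0.53 ± 0.14 and -0.56 ± 0.13), as was Mcm10, which helps to activate the helicase (-1.33 ± 0.37). Gins1 and Mcm10 rested on few molecules, with 15 and 17 UMIs in all at NaOH 4 h, against 50 and 56 in untreated cells. Their means over all libraries were 6.88 and 7.73, near the minimum of 5. Gins3 and Orc1, which encodes a subunit of the origin recognition complex, were lower at NaOH 2 h (-1.02 ± 0.34 and -1.13 ± 0.40) and were not called at NaOH 4 h. The 2 h calls were lost without untreated replicate 1 for both genes, and also without NaOH 2 h replicate 1 for Gins3 and replicate 4 for Orc1 (adjusted p at most 0.0986). Gins3 had 19.5, 19.5, 20.4 and 10.6 normalized counts at NaOH 4 h, against 5.57, 5.19, 8.53 and 7.45 at NaOH 2 h, and rose between these times (log2FC 1.35 ± 0.34, adjusted p = 0.00227). Cdc45 passed the test in no comparison, with log2FC values between -0.45 and -0.34 over untreated cells.

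Among the polymerase and fork genes, calls were found in both directions. Of 15 tested members, 6 were lower at 1% CO2 2 h, 9 at 1% CO2 4 h, 7 at NaOH 2 h and 11 at NaOH 4 h, with 1, 3, 1 and 1 higher. In the same order the shares lower were 40%, 60%, 46.7% and 73.3%, beside 12.4%, 18.9%, 20.4% and 26.9% of all tested genes. The shares higher were 6.67%, 20%, 6.67% and 6.67%, beside 16.0%, 20.3%, 23.0% and 28.2%.

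Pold1, the catalytic subunit of DNA polymerase delta, had 32.6, 34.8, 33.4 and 33.7 normalized counts at 1% CO2 2 h and 60.3, 41.9, 59.5 and 34.8 at 1% CO2 4 h, 37.1, 33.8, 31.7 and 42.6 at NaOH 2 h and 34.7, 33.2, 26.2 and 22.2 at NaOH 4 h, against 68.5, 74.9, 65.7 and 85.6 in untreated cells. All treated libraries lay below all untreated ones, and the 1% CO2 4 h libraries were the most spread. The log2FC was -1.13 ± 0.16 and -0.55 ± 0.16 at 2 h and 4 h of 1% CO2 (adjusted p = 1e-06 and 0.00472), and -1.0 ± 0.17 and -1.33 ± 0.17 at 2 h and 4 h of NaOH (adjusted p = 8.39e-06 and 2.22e-08).

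Prim1, the catalytic primase subunit that lays down the RNA primer, had 31.6, 40.5, 43.6 and 44.9 normalized counts at 1% CO2 2 h and 41.1, 31.4, 33.4 and 30.0 at 1% CO2 4 h, 36.2, 31.2, 34.1 and 40.4 at NaOH 2 h and 26.3, 22.9, 22.3 and 31.7 at NaOH 4 h, against 59.6, 60.6, 45.7 and 56.0 in untreated cells. No treated library reached the untreated range. The log2FC at 4 h was -0.70 ± 0.16 in 1% CO2 (adjusted p = 0.000776) and -1.12 ± 0.17 in NaOH (adjusted p = 6.14e-07). The other polymerase genes were Pole, of the leading-strand polymerase, and Pola1 and Pola2, of the polymerase that extends the primer. Pole was lower at NaOH 2 h and 4 h (-1.20 ± 0.30 and -1.24 ± 0.29), with 6.78, 14.9, 11.6 and 6.33 normalized counts at NaOH 4 h, against 21.7, 35.1, 20.1 and 15.2 in untreated cells. Its mean was also low at 1% CO2 2 h and 4 h, at 13.7 and 11.9 against 23.0 in untreated cells. Pola1 had means of 11.6 and 9.43 in 1% CO2 and 7.02 and 8.66 in NaOH at 2 h and 4 h, against 17.2. For Pola2 they were 50.9 and 51.1 in 1% CO2 and 42.6 and 39.7 in NaOH, against 55.0.

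The clamp gene was higher at 4 h of both treatments. All its loader genes were called lower at NaOH 4 h, and their means were also under the untreated ones at 1% CO2 4 h. Pcna had 148, 157, 189 and 135 normalized counts at 1% CO2 2 h and 165, 205, 163 and 201 at 1% CO2 4 h, 105, 112, 95 and 104 at NaOH 2 h and 162, 127, 193 and 145 at NaOH 4 h, against 104, 110.0, 101 and 114 in untreated cells. Both groups of 1% CO2 and the NaOH 4 h group lay wholly above the untreated libraries, and the NaOH 2 h group overlapped them. The log2FC was 0.56 ± 0.12 and 0.77 ± 0.12 at 2 h and 4 h of 1% CO2 (adjusted p = 0.000469 and 3.52e-06), and -0.05 ± 0.13 and 0.55 ± 0.12 at 2 h and 4 h of NaOH (adjusted p = 0.771 and 0.000201). Pcna has processed pseudogenes in the mouse annotation (Pcna-ps1 and Pcna-ps2), as has Tyms (Tyms-ps), and reads shared with such copies are uncertain.

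Of the replication factor C genes, Rfc1 had 66.1, 60.7, 63.1 and 84.5 normalized counts at NaOH 4 h and 93.2, 84.9, 97.8 and 96.4 at 1% CO2 4 h, against 110.3, 132, 117 and 114 in untreated cells. Rfc2 had 88.1, 83.6, 74.7 and 72.8 at NaOH 4 h and 72.2, 108, 81.7 and 82.2 at 1% CO2 4 h, against 116, 120.3, 131 and 142 in untreated cells. Neither gene had a treated 4 h library in the untreated range. All 5 subunits were lower at NaOH 4 h, with log2FC values of -0.78 ± 0.13 for Rfc1, -0.67 ± 0.12 for Rfc2, -0.58 ± 0.19 for Rfc3, -1.19 ± 0.21 for Rfc4 and -0.60 ± 0.19 for Rfc5. The Rfc3 call was lost without untreated replicate 2 (adjusted p = 0.0574). The 3′ end of Rfc4 overlaps that of Eif4a2, a translation initiation factor gene on the opposite strand that was also lower at NaOH 4 h (log2FC -0.69, adjusted p = 0.000594), and the part of such reads in the Rfc4 count was not tested.

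Lig1, the ligase that joins Okazaki fragments, had 30.5, 25.2, 20.4 and 17.9 normalized counts at NaOH 4 h and 30.1, 34.9, 49.5 and 20.5 at 1% CO2 4 h, against 58.0, 57.4, 43.4 and 48.8 in untreated cells. It was lower in both (log2FC -1.14 ± 0.20, adjusted p = 7.94e-06, and -0.62 ± 0.19, adjusted p = 0.00919), and only the NaOH libraries were clear of the untreated ones. Fen1, the flap nuclease that trims those fragments, and Rpa2, of the single-strand binding protein RPA, were higher at 1% CO2 4 h (0.41 ± 0.15 and 0.42 ± 0.16). Both calls were lost with scaling by library size alone and in 4 and 5 of the 8 fits that left out 1 library, with an adjusted p of at most 0.13 and 0.171. Rpa1, of the same protein, had 321, 296, 307 and 435 normalized counts at NaOH 2 h, against 266, 297, 269.6 and 291 in untreated cells. Its call there (0.29 ± 0.10, adjusted p = 0.0232) was lost without NaOH 2 h replicate 4, the highest of these libraries, where the adjusted p was 0.28.

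**Figure D4:**
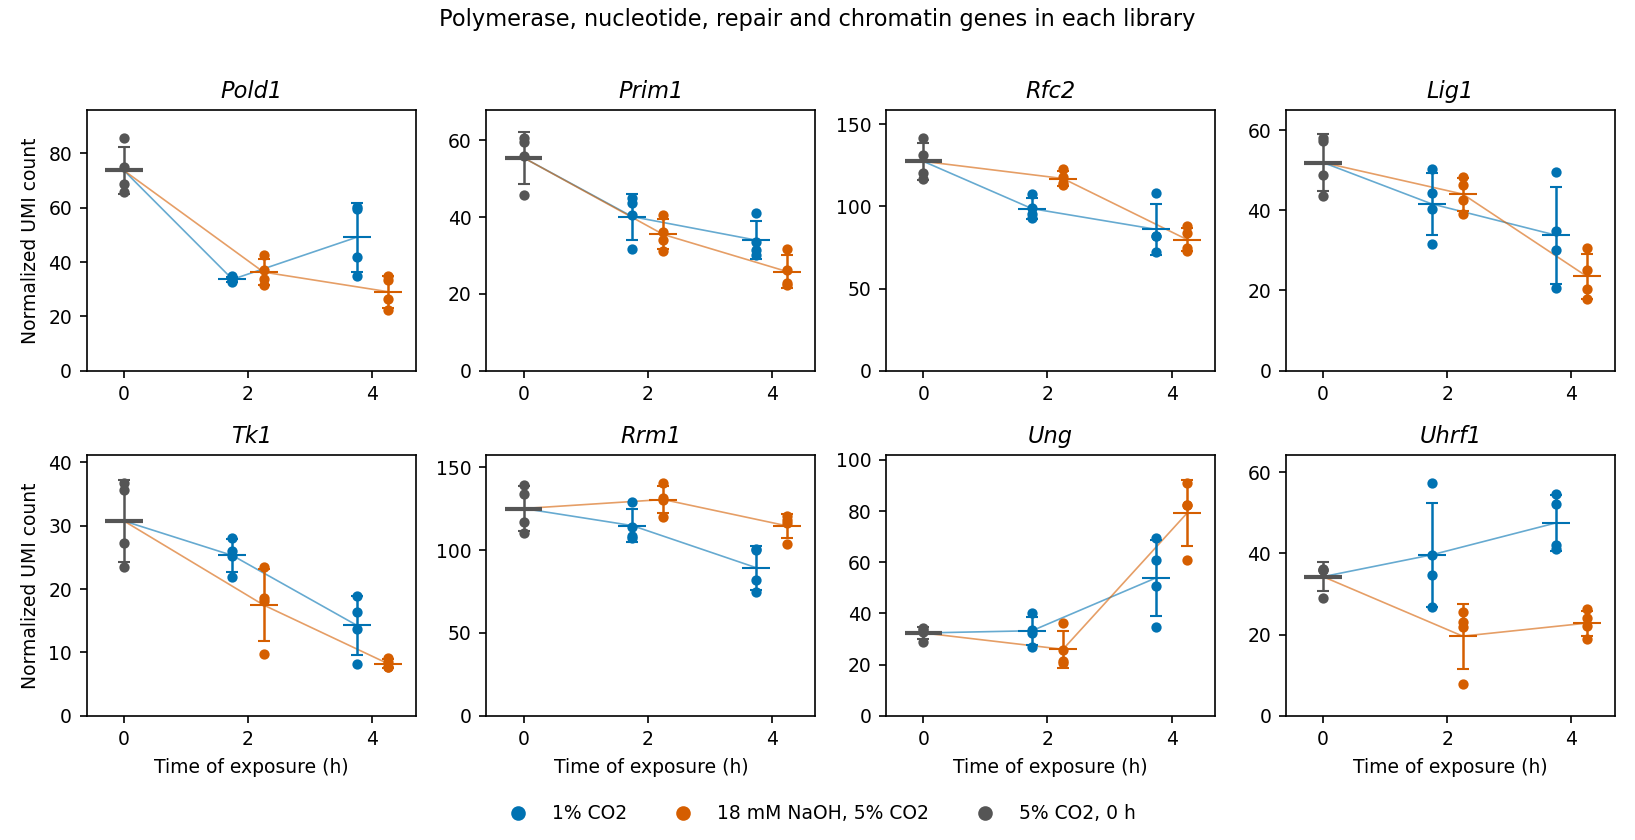
Normalized UMI counts of 8 genes of the polymerase, nucleotide, repair and chromatin roles in each library against the time of exposure (h), in the colours and with the means and SDs (n = 4) of the helicase plot. Pold1 and Prim1 lie below the untreated libraries at every treated time, Tk1 lies between 7.63 and 9.16 at NaOH 4 h, and Ung lies between 61.0 and 90.8 at NaOH 4 h.

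The nucleotide supply genes did not move as a group. Of 5 tested members, none was called at 1% CO2 2 h, 2 were lower and 1 higher at 1% CO2 4 h, 2 were lower at NaOH 2 h, and 2 were lower and 1 higher at NaOH 4 h. Of all tested genes, 12.4% were lower and 16.0% higher at 1% CO2 2 h, and 18.9% and 20.3% at 1% CO2 4 h. At NaOH 2 h 20.4% were lower and 23.0% higher, and at NaOH 4 h 26.9% and 28.2%.

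Tk1, the cytosolic thymidine kinase of the salvage pathway, had 25.3, 21.9, 26.0 and 28.1 normalized counts at 1% CO2 2 h and 16.4, 8.14, 13.6 and 19.0 at 1% CO2 4 h, 18.6, 18.2, 9.74 and 23.4 at NaOH 2 h and 7.63, 9.16, 7.77 and 8.45 at NaOH 4 h, against 35.7, 36.7, 23.4 and 27.2 in untreated cells. Both 4 h groups lay below all untreated libraries, and replicate 2 of 1% CO2 4 h was as low as the NaOH 4 h libraries. The log2FC at 4 h was -1.14 ± 0.24 in 1% CO2 (adjusted p = 0.000206) and -1.92 ± 0.26 in NaOH (adjusted p = 7.8e-08).

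Rrm1, the large subunit of ribonucleotide reductase, fell at 1% CO2 4 h. It had 100.5, 74.4, 100.3 and 82.2 normalized counts at 1% CO2 4 h and 120.3, 118, 104 and 116 at NaOH 4 h, against 117, 139, 110.3 and 134 in untreated cells. All 1% CO2 4 h libraries lay below the untreated ones (log2FC -0.48 ± 0.12, adjusted p = 0.0014), and the NaOH 4 h libraries overlapped them, where the log2FC was -0.13 ± 0.11 (adjusted p = 0.335). The small subunit Rrm2 passed the test in no comparison, with log2FC values between -0.27 and 0.14 over untreated cells. Tyms, thymidylate synthase, had 13.0, 10.4, 7.31 and 11.7 normalized counts at NaOH 2 h, against 22.3, 21.5, 23.4 and 12.8 in untreated cells (log2FC -0.88 ± 0.27, adjusted p = 0.00836), and 1 untreated library overlapped the NaOH range.

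Dut, which removes dUTP from the nucleotide pool, was higher at 4 h in both treatments but rested on few molecules. It had 10, 12, 8 and 6 UMIs at 1% CO2 4 h and 16, 8, 8 and 8 at NaOH 4 h, against 7, 6, 2 and 2 in untreated cells. In normalized counts these were 9.14, 14.0, 9.91 and 9.48 at 1% CO2 4 h and 13.6, 9.16, 7.77 and 8.45 at NaOH 4 h, against 3.90, 4.78, 2.23 and 1.60 in untreated cells, without overlap. The log2FC was 1.67 ± 0.44 in 1% CO2 (adjusted p = 0.00264) and 1.56 ± 0.43 in NaOH (adjusted p = 0.00239).

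Among the repair members, Ung, the uracil glycosylase that cuts uracil out of DNA, rose and Brca1 and Brca2, which act in homologous recombination, fell. Ung had 40.0, 32.4, 26.9 and 33.7 normalized counts at 1% CO2 2 h and 69.4, 34.9, 60.7 and 50.6 at 1% CO2 4 h, 21.4, 36.4, 20.7 and 25.5 at NaOH 2 h and 61.0, 82.4, 82.5 and 90.8 at NaOH 4 h, against 33.4, 32.7, 29.0 and 34.4 in untreated cells. Both 4 h groups lay wholly above the untreated range, and both 2 h groups overlapped it. The log2FC at 4 h was 0.74 ± 0.19 in 1% CO2 (adjusted p = 0.00166) and 1.27 ± 0.17 in NaOH (adjusted p = 1.12e-07), and within NaOH Ung rose by 1.68 ± 0.20 between 2 h and 4 h (adjusted p = 2.61e-08).

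Brca1 had 1, 12, 5 and 8 UMIs at 1% CO2 2 h and 9, 3, 2 and 1 at 1% CO2 4 h, 2, 1, 2 and 3 at NaOH 2 h and 3, 0, 1 and 2 at NaOH 4 h, against 14, 15, 12 and 16 in untreated cells. All NaOH libraries held fewer UMIs than any untreated one, with a log2FC of -2.10 ± 0.51 and -2.80 ± 0.53 (adjusted p = 0.000986 and 3.11e-05). Its mean over all libraries was 5.09, just over the minimum of 5. Group means were 11.5 in untreated cells, 6.10 and 3.94 at 1% CO2 2 h and 4 h, and 2.52 and 1.41 at NaOH 2 h and 4 h. Brca1 thus entered the test mainly through its untreated libraries, and its lower calls are not independent of that filter. In 1% CO2 the call at 4 h (-1.31 ± 0.44, adjusted p = 0.016) was lost without 1% CO2 4 h replicate 3 or 4 (adjusted p at most 0.0563). Brca2 had 3, 2, 3 and 4 UMIs at NaOH 4 h and 15, 12, 3 and 10 at 1% CO2 4 h, against 23, 19, 7 and 17 in untreated cells. Its NaOH 4 h group lay below the untreated one (log2FC -2.04 ± 0.46, adjusted p = 0.000314), and the 1% CO2 4 h group overlapped it.

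Among the S phase regulators, Ccne1, which encodes cyclin E, passed the test in no comparison, with log2FC values between -0.39 and -0.01 over untreated cells. E2f1, the E2F factor best known for switching on S phase genes, had 71.2, 93.9, 53.4 and 77.1 normalized counts at NaOH 4 h and 96.8, 96.5, 114 and 109 at 1% CO2 4 h, against 112, 82.1, 89.1 and 84.0 in untreated cells. The NaOH 4 h group overlapped the untreated one, and its call (-0.34 ± 0.14, adjusted p = 0.0384) was lost with DESeq2 and without untreated replicate 1 or 3 or NaOH 4 h replicate 1 or 3, where the adjusted p was at most 0.243. Ccne2, under the minimum and not tested, had 0 UMIs in all 4 libraries of NaOH 2 h, against 5, 4, 3 and 3 in untreated cells.

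Of the chromatin members, Uhrf1, which brings the maintenance methyltransferase to newly copied DNA, had 23.2, 7.79, 21.9 and 25.5 normalized counts at NaOH 2 h and 22.0, 24.0, 26.2 and 19.0 at NaOH 4 h, against 36.2, 35.9, 29.0 and 36.0 in untreated cells. All NaOH libraries lay below the untreated ones (log2FC -0.69 ± 0.23, adjusted p = 0.0147, and -0.60 ± 0.21, adjusted p = 0.0171). The 4 h call was lost without NaOH 4 h replicate 4 (adjusted p = 0.0563). Chaf1b, a subunit of the histone chaperone CAF-1, was lower at NaOH 4 h (-0.70 ± 0.18, adjusted p = 0.00157), and Chaf1a, the large subunit, passed the test in no comparison.

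In the direct comparison of the treatments at the same time, the fold change does not involve the 0 h libraries, which enter the fit only through the scaling and the shared spread. At 4 h, 16 members were higher and 3 lower in 1% CO2 than in NaOH, where 16.3% of all tested genes were higher and 19.2% lower, and the median log2FC of the members was 0.41. Of the 16 and 3, 12 and 1 were called whichever library was left out, and the count of lower members was 1 without 1% CO2 4 h replicate 2. At 2 h, 6 members were higher and 2 lower (background 14.9% and 17.1%), with a median of 0.14.

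By role, 7 of 14 origin and helicase genes were higher and 1 lower at 4 h, beside 4 of 15 polymerase and fork genes higher and none lower, 1 and 1 of 5 nucleotide genes, 1 and 1 of 3 repair genes, 1 of 2 regulators higher and 2 of 3 chromatin genes higher. The share higher was 50% for origin and helicase genes and 26.7% for polymerase and fork genes. Of all tested genes 16.3% were higher and 19.2% lower. In log2FC of 1% CO2 4 h over NaOH 4 h, Mcm3 stood at 0.99 ± 0.13 (adjusted p = 1.9e-07), Mcm4 at 1.09 ± 0.14 (adjusted p = 1.55e-07), Mcm5 at 1.16 ± 0.21 (adjusted p = 4.11e-05), Mcm7 at 0.86 ± 0.14 (adjusted p = 4.34e-06) and Cdt1 at 0.81 ± 0.13 (adjusted p = 4.71e-06). Every library of 1% CO2 4 h lay above every NaOH 4 h library for these genes. Mcm6 was lower in 1% CO2, at -0.79 ± 0.15 at 2 h (adjusted p = 8.74e-05) and -0.90 ± 0.15 at 4 h (adjusted p = 6.73e-06), again without overlap. Mcm2 was not called at 4 h (0.34, 95% interval 0.02 to 0.66).

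Outside the helicase, Pold1 (0.78 ± 0.19), Rfc1 (0.44 ± 0.14), Rpa2 (0.60 ± 0.17), Tyms (0.88 ± 0.26), Brca2 (1.94 ± 0.50), E2f1 (0.50 ± 0.15) and Uhrf1 (1.07 ± 0.22) were higher in 1% CO2 4 h than in NaOH 4 h and were called with any 1 library left out. Uhrf1 had 52.1, 54.7, 42.1 and 41.1 normalized counts at 1% CO2 4 h, against 22.0, 24.0, 26.2 and 19.0 at NaOH 4 h. Ung (-0.52 ± 0.17, adjusted p = 0.0149) and Rrm1 (-0.35 ± 0.12, adjusted p = 0.0242) were lower in 1% CO2 4 h. The Ung call was lost without 1% CO2 4 h replicate 2 or NaOH 4 h replicate 4 and the Rrm1 call without 1% CO2 4 h replicate 2 or 4 or NaOH 4 h replicate 1, with an adjusted p of at most 0.102 and 0.116. Of the members called against untreated cells in both treatments, some did not pass the test between them at 4 h: Prim1 stood at 0.42 (95% interval 0.04 to 0.79, adjusted p = 0.0844), Pcna at 0.21 (95% interval -0.02 to 0.45, adjusted p = 0.162) and Tk1 at 0.78 (95% interval 0.15 to 1.41, adjusted p = 0.0561).

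**Figure D5:**
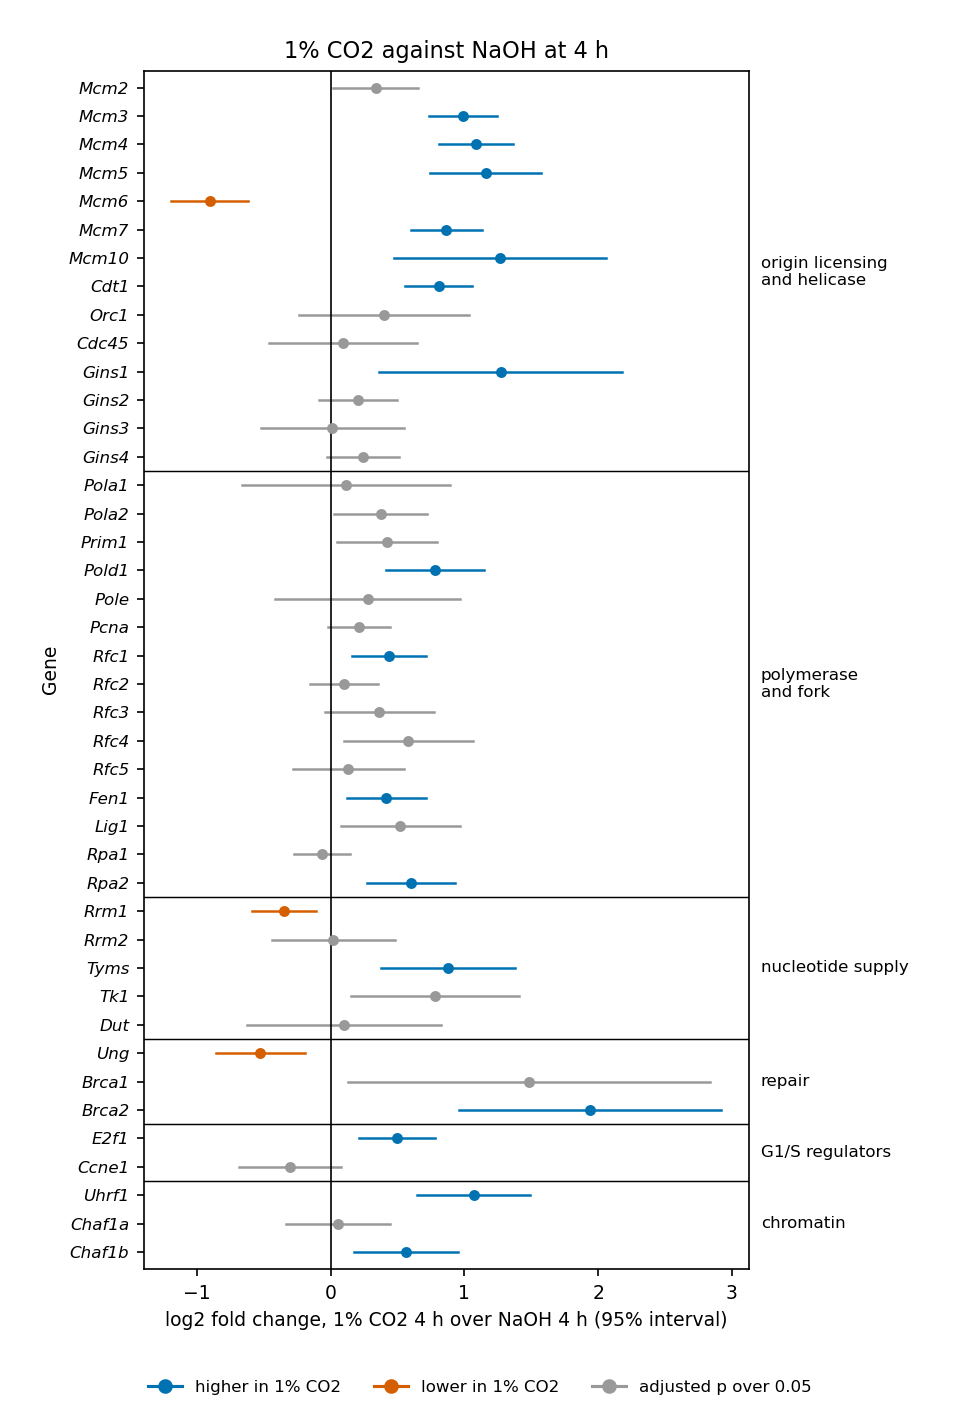
log2 fold change of 1% CO2 4 h over NaOH 4 h for the 42 tested members, by role, with 95% intervals, in blue where higher and in orange where lower in 1% CO2 (edgeR adjusted p of at most 0.05) and in grey otherwise. Mcm3, Mcm4, Mcm5 and Mcm7 lie between 0.86 and 1.16 and Mcm6 at -0.90.

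Between 2 h and 4 h of the same treatment most members were not called. In 1% CO2 the later time had 6 members higher and 2 lower than the earlier one (7.74% and 7.55% of all tested genes), with Mcm3 at 0.56 ± 0.12 and Mcm7 at 0.56 ± 0.13 (adjusted p = 0.00188 and 0.00296). The count of higher members was 2 without 1% CO2 4 h replicate 1, and the 2 lower calls (Rrm1 and Tk1) fell to none without 1% CO2 2 h replicate 4 or 1% CO2 4 h replicate 2. In NaOH it had 4 members higher and 10 lower (16.0% and 16.5%). Lig1 (-0.91 ± 0.22, adjusted p = 0.00129) and Rfc2 (-0.55 ± 0.13, adjusted p = 0.000855) fell, and Pcna rose (0.61 ± 0.13, adjusted p = 0.000372). The count of lower members was 5 or 6 without any 1 of NaOH 2 h replicates 1, 3 and 4 and NaOH 4 h replicates 1 and 3.

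The change of the treatment difference between the times, tested as an interaction, was called for 5 of 42 members, 4 higher and 1 lower. The shares were 9.52% higher and 2.38% lower, beside 7.94% and 7.11% of all tested genes, so the counts lay near or under the background. Brca2 (2.36 ± 0.69, adjusted p = 0.0161) was called with any 1 library left out, and Pold1 (0.91 ± 0.27, adjusted p = 0.019), Mcm5 (0.90 ± 0.29, adjusted p = 0.0342), Cdt1 (0.52 ± 0.18, adjusted p = 0.0434) and Ung (-0.96 ± 0.29, adjusted p = 0.0184) were not. The count was 2 without 1% CO2 4 h replicate 1 or NaOH 2 h replicate 4, and 3 without 1% CO2 2 h replicate 1 or 2, 1% CO2 4 h replicate 2 or 3, NaOH 2 h replicate 1, or NaOH 4 h replicate 1 or 4.

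Other genes of the same pathways were counted from further lists. Of 28 other tested genes of the replication machinery, 3 were lower and 3 higher at 1% CO2 2 h, 4 lower and 5 higher at 1% CO2 4 h, 9 lower and 3 higher at NaOH 2 h and 8 lower and 4 higher at NaOH 4 h. The share lower at 2 h was 10.7% in 1% CO2 and 32.1% in NaOH, beside 12.4% and 20.4% of all tested genes. The share higher at 2 h was 10.7% in both, beside 16.0% and 23.0%. The share lower at 4 h was 14.3% in 1% CO2 and 28.6% in NaOH, beside 18.9% and 26.9% of all tested genes, and the share higher was 17.9% and 14.3%, beside 20.3% and 28.2%. The counts of lower genes at 4 h thus lay near the background. Gmnn, geminin, which binds and blocks Cdt1, was lower at 4 h in 1% CO2 (log2FC -0.70 ± 0.20, adjusted p = 0.00429) and in NaOH (-1.39 ± 0.21, adjusted p = 6.57e-07). Prim2, the regulatory primase subunit, was higher at 4 h in both (0.45 ± 0.14, adjusted p = 0.00951, and 1.06 ± 0.13, adjusted p = 1.02e-08), in the opposite direction to Prim1.

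Of 24 other tested nucleotide genes, 15 were higher and 3 lower at 1% CO2 4 h and 8 higher and 5 lower at NaOH 4 h, shares of 62.5% and 33.3% higher beside 20.3% and 28.2% of all tested genes. Dctd, dCMP deaminase, was higher at 1% CO2 4 h (1.65 ± 0.16, adjusted p = 1.05e-10), as was Atic of purine synthesis (1.24 ± 0.13, adjusted p = 2.36e-08). Samhd1, which breaks down dNTPs, was lower at 4 h in 1% CO2 (-1.37 ± 0.09, adjusted p = 1.73e-15) and in NaOH (-0.99 ± 0.08, adjusted p = 1.3e-12). Of 22 other tested repair and checkpoint genes, 4 were lower and 2 higher at 1% CO2 4 h and 11 lower and 1 higher at NaOH 4 h, shares of 18.2% and 50% lower beside 18.9% and 26.9% of all tested genes.

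Of 24 other tested G1/S regulators, 7 were lower and 8 higher at 1% CO2 4 h and 7 lower and 10 higher at NaOH 4 h. The share lower was 29.2% at both, beside 18.9% and 26.9% of all tested genes, and the share higher was 33.3% and 41.7%, beside 20.3% and 28.2%. Ccnd1, cyclin D1, was higher at 4 h in 1% CO2 (1.80 ± 0.11, adjusted p = 1.67e-14) and in NaOH (1.06 ± 0.11, adjusted p = 1.77e-09), and the inhibitor gene Cdkn2d was lower in both (-1.52 ± 0.15, adjusted p = 2.6e-10, and -1.19 ± 0.14, adjusted p = 5.7e-09). Of 10 other tested genes of replication-coupled chromatin, none was lower and 4 higher at 1% CO2 4 h and 2 lower and 3 higher at NaOH 4 h, with the histone chaperone Nasp higher in both (0.48 ± 0.09, adjusted p = 9.35e-05, and 0.52 ± 0.09, adjusted p = 1.29e-05). The share higher of these 10 genes was 40% and 30%, beside 20.3% and 28.2% of all tested genes. At NaOH 4 h the share lower was 20%, beside 26.9%.

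Mitotic genes, which act after S phase, were mostly lower. Of 29 tested genes none was higher than in untreated cells in either treatment, and 9 were lower at 1% CO2 2 h, 22 at 1% CO2 4 h, 24 at NaOH 2 h and 27 at NaOH 4 h. In the same order the shares lower were 31.0%, 75.9%, 82.8% and 93.1%, beside 12.4%, 18.9%, 20.4% and 26.9% of all tested genes. The shares of all tested genes that were higher were 16.0%, 20.3%, 23.0% and 28.2%. Mki67, a marker of cycling cells, stood at -1.19 ± 0.20 at 1% CO2 4 h (adjusted p = 1.37e-05) and -2.28 ± 0.23 at NaOH 4 h (adjusted p = 1.57e-10). Between the treatments, 11 of the 29 were higher and none lower in 1% CO2 4 h than in NaOH 4 h. The share higher was 37.9%, beside 16.3% of all tested genes higher and 19.2% lower. Of 15 tested p53 target genes, 4 were higher and 5 lower at 1% CO2 4 h and 5 higher and 5 lower at NaOH 4 h. Their shares higher were 26.7% and 33.3%, beside 20.3% and 28.2% of all tested genes. The share lower was 33.3% at both, beside 18.9% and 26.9%. Cdkn1a, the p21 inhibitor of S phase entry and a p53 target, was higher at 1% CO2 2 h (0.65 ± 0.09, adjusted p = 5.47e-07), NaOH 2 h (1.23 ± 0.09, adjusted p = 7.24e-14) and NaOH 4 h (0.55 ± 0.09, adjusted p = 2.71e-06), and stood at 0.22 ± 0.09 at 1% CO2 4 h (adjusted p = 0.0511).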

How the data were processed

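The authors prepared bulk MARS-seq libraries, a 3′ method with UMIs, trimmed reads with cutadapt and mapped them to mm10 with STAR. The submitters give STAR 2.4.2a, and the methods of the study name a different version. UMIs were counted per RefSeq gene, extended at both ends, with HTSeq-count. The deposited table holds raw UMI counts and, beside them, a signal column per library, the counts that the authors divided by DESeq2 size factors. The 2 were checked against each other, differed by a relative 5.11e-15 at most from a single factor per library, and the signal was not used further. Totals ran from 1325293 to 5640523 per library, so members of a mean of 5 carry large counting error. Intervals cover the fitted spread only.

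Tests were run on the counts with edgeR 4.0.16 (R 4.3.3): TMM scaling, genes of a mean normalized count of at least 5, a robust quasi-likelihood fit of all 20 libraries in 5 groups with no covariate, and Benjamini-Hochberg adjustment over 9726 genes. Normalized counts in the text are the UMI counts rescaled to the mean TMM-adjusted library size. The common biological coefficient of variation was 0.101. Replicate pairs differed by more than sampling noise (chi-square per degree of freedom 2.19 to 11.5 over 30 pairs), so none was taken for a library deposited again, and all 20 were kept. Genes with adjusted p up to 0.05 were called, and a 2-fold change is an absolute log2FC of 1 or more. The edgeR steps were tested on simulated data. Alternatives were DESeq2 1.42.0, scaling by library size, no filter, a minimum of 20, the replicate number as a block, and leaving out each library.

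The members and lists were chosen with earlier results of these data known. Any member may be named. Values in every library are given for Mcm2 to Mcm7, Pcna, the members of smallest adjusted p per treatment and direction against 0 h, and some others chosen after their values were seen (Tyms, Brca1, Brca2, E2f1, Uhrf1, Gins3 and Ccne2). From other lists up to 3 genes per direction were eligible. Gene overlaps are from GENCODE vM21. Promoters are from RefSeq, GRCm38.p6, with 39 of 46 members matched.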

Additional observations from a re-analysis of the deposited data

Results flagged for a closer look

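In 225 gene-group combinations of 4 libraries, 8 libraries stood apart from the others of their group by Dixon's criterion, which chance alone gives in about 1 of 20 groups. In the treated groups these were Mcm3 in NaOH 2 h replicate 1 (57.6 normalized counts), Mcm4 in 1% CO2 4 h replicate 4 (122), Cdc45 in 1% CO2 4 h replicate 1 (11.0), Gins3 in NaOH 4 h replicate 4 (10.6), Pola2 in NaOH 2 h replicate 2 (28.6) and Dut in 1% CO2 4 h replicate 2 (14.0). In untreated cells they were Orc1 in replicate 1 (15.0) and Uhrf1 in replicate 3 (29.0). Mcm3, Mcm4 and Dut kept their calls against untreated cells at those times, or stayed without one, when the library was left out.

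The difference between 1% CO2 and NaOH changed between 2 h and 4 h, by the interaction test of edgeR, for Mcm5 (log2 difference 0.90, adjusted p = 0.0342), Cdt1 (0.52, adjusted p = 0.0434), Pold1 (0.91, adjusted p = 0.019), Brca2 (2.36, adjusted p = 0.0161) and Ung (-0.96, adjusted p = 0.0184). Of these Brca2 alone was called with any 1 library left out, and it rests on 0 to 15 UMIs per treated library. The shares of members called, 9.52% higher and 2.38% lower, lay near or under the 7.94% and 7.11% of all tested genes.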

How the results depend on the processing

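No called member changed sign under any alternative run. Counts that moved by more than 1.5 times were as follows. With scaling by library size alone, 10 members were lower at 1% CO2 2 h over untreated cells (6 with TMM), 1 was higher at NaOH 2 h over untreated cells (3), 10 were higher at 1% CO2 2 h over NaOH 2 h (6), and 3 passed the interaction test (5). With DESeq2, 3 passed the interaction test. For 1% CO2 4 h over 2 h, 1 member was lower with DESeq2, with no filter, with a minimum of 20 and with the replicate block (2). With a minimum of 20, 12 members were lower at NaOH 2 h over untreated cells (19) and 2 higher at NaOH 4 h over 2 h (4), as fewer members are tested.

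With 1 library left out, members higher and lower over untreated cells ranged over 2 to 3 and 2 to 9 at 1% CO2 2 h, 5 to 8 and 8 to 12 at 1% CO2 4 h, 2 to 3 and 15 to 18 at NaOH 2 h, and 4 to 5 and 24 to 27 at NaOH 4 h. They ranged over 2 to 6 and 0 to 2 for 1% CO2 4 h over 2 h, 3 to 4 and 5 to 10 for NaOH 4 h over 2 h, 4 to 8 and 2 for 1% CO2 over NaOH at 2 h, and 14 to 17 and 1 to 3 at 4 h. The interaction count ranged over 2 to 6.

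Scaling by library size alone lowered the median log2FC of all genes to -0.21 at NaOH 2 h and -0.19 at NaOH 4 h over untreated cells. The background was then 36.5% and 39.2% lower, and the median of the members -0.60 and -0.77. Libraries with the same replicate number were not more alike than others. Of 40 pairs with a shared number 3 correlated by more than 0.1, beside 13 of 120 pairs with different numbers. Of 20 libraries 2 correlated best with their own number. These values do not show whether libraries of 1 number shared a culture, and pairing was treated as absent. With the replicate block, 10 calls were lost and 1 gained over 378 tests of single members.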
